A study of Mus musculus with 4 samples.

Results

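The interaction of shRNA state and Pam3Cys4 stimulation was described gene by gene as a ratio of ratios, the stimulation fold of a gene in cells with an shRNA divided by its stimulation fold in cells without it. A value above 1 means that the measured fold was larger with the shRNA, and a value below 1 that it was smaller. A gene needed no fewer than 10 counts in all 4 libraries and a level of at least 5 CPM, scaled reads relative to the library's total, in the highest, and 9857 of 37681 gene IDs passed. The 4 libraries were mRNA of bone marrow cells from wild-type mice of strain C57BL/6, cultured in DMEM with fetal serum and L929 supernatant, and all 4 groups shared that strain, genotype and culture. Cells without shRNA were unstimulated or stimulated with 100 nM Pam3Cys4 for 5 h, and cells treated with an shRNA against lncRNA-COX2 were unstimulated or stimulated in the same way, with 1 library in each group. Both titles of libraries without shRNA include EV, a term that the labels leave unexplained, so it is not known whether those cells held a control construct. The labels give neither the age of the mice nor the number of animals or cultures behind a library.

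Pam3Cys4 is a synthetic triacylated lipopeptide that is sensed by TLR2 together with TLR1 and signals through MyD88 to NF-kB and the MAP kinases. In macrophages the first wave of induced genes encodes cytokines, chemokines and feedback inhibitors, and secreted cytokines then act back on the same cells through receptors that signal by JAK kinases and STAT factors. An interaction asks whether a gene's response to the stimulus depends on a second condition. The long noncoding RNA that the shRNA targets is known as a regulator of immune genes in macrophages. L929 supernatant supplies M-CSF, the growth factor that turns bone marrow progenitors into macrophages.

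Each library held 47385277 to 65826838 reads assigned to genes. Of 13 macrophage markers, 13 reached 5 CPM in some library, and their summed level was 9788 and 12750 CPM without shRNA (unstimulated, then Pam3Cys4) and 14541 and 14784 CPM with it. Of the markers of other cell types, 0 of 12 for granulocytes, 0 of 8 for natural killer cells, 0 of 7 for erythroid cells and 0 of 9 for mast cells reached 5 CPM, and at most 1 gene did so in each list for dendritic, T, B, stromal and progenitor cells. The granulocyte markers S100a9, Ly6g, Elane, Ltf, Ngp and Retnlg had 0 counts in all 4 libraries. In bulk RNA, fewer cells of a kind and less RNA per cell cannot be told apart. Of 4 Y-linked genes, Ddx3y had 3 and 4 counts without shRNA and 921 and 1116 with it, Kdm5d had 0 and 1 against 730 and 665, and Uty had 1 and 0 against 320 and 334. Eif2s3y went the other way on few counts, 3 and 6 without shRNA and 0 and 0 with it. The shRNA states may thus compare cells of different mice, and an effect of the shRNA cannot be told apart from a difference between animals or cultures. A ratio of ratios divides out a difference between the shRNA states that is equal in both stimulation states, but not a difference between animals or cultures in the response itself.

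With 1 library in each group the spread between repeated cultures is unknown, so no test was made and no p-value is given. The 95% interval printed beside a ratio comes from the sum of the inverse counts and covers counting error only. A gene was called when its ratio of ratios was at least 2 or at most 0.5 and this interval excluded 1. Levels are TMM-scaled CPM, which compare 1 gene between libraries and not different genes, and each pair of levels is given as unstimulated first and Pam3Cys4 second.

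Most genes had a similar stimulation fold in both shRNA states. The median log2 ratio of ratios over the 9857 genes was 0.02, the central 90% lay between -0.62 and 0.70, and 87.0% of genes lay within 1.5-fold of 1. The stimulation fold was at least 2-fold larger with shRNA for 191 genes (1.94%) and at least 2-fold smaller for 162 genes (1.64%), together 353 genes or 3.58% of those measured. At least 4-fold ratios were found for 25 genes in the larger and 19 in the smaller direction, and at least 8-fold ratios for 4 and 7 genes. Counting error was small against these sizes, since the interval spanned a factor of 1.10 on either side for the median gene, and it excluded 1 for 65.8% of all genes. Ptgs2, the gene of the cyclooxygenase COX-2, was an example of equal folds, at 13.5 and 857 CPM without shRNA, against 5.1 and 304 CPM with it, a 63.3-fold and a 59.6-fold induction. A narrow counting interval therefore does not by itself mark a gene, and the calls rest on the fold threshold. When a coefficient of variation of 0.4 between libraries was assumed in the interval, 14 larger and 9 smaller genes remained called.

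**Figure D1:**
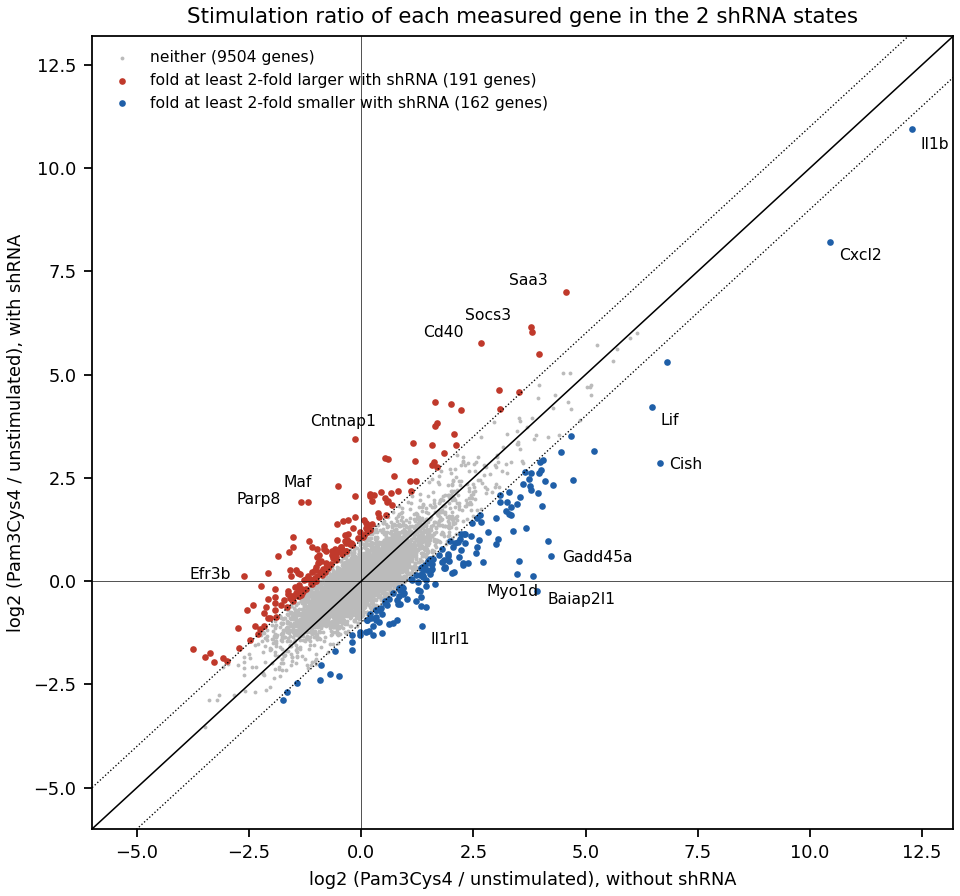
Stimulation ratio (log2 of Pam3Cys4 over unstimulated) of the 9857 measured genes without shRNA on the x axis and with shRNA on the y axis. The solid line marks equal folds and the dotted lines a 2-fold ratio of ratios. The 191 red genes lie above and the 162 blue genes below the dotted lines, while 9504 grey genes lie in neither class. Il1b and Cxcl2, at the far right, were induced at least 298-fold in both states but less with shRNA.

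The genes at the edge of the minimum levels were few. At a lowest count of exactly 10, 11 genes had a median log2 ratio of ratios of -0.29 (range -3.19 to 0.82), and 0 were called larger and 4 smaller. Just outside, at a lowest count of 9, 7 genes had a median of -0.71 (range -2.83 to 1.17), with 1 past 2-fold in the larger and 3 in the smaller direction. At a highest level of 5.0 to 5.1 CPM, 23 genes had a median of 0.17, and at 4.9 to 5.0 CPM 28 genes had a median of -0.11, each set with 1 larger and 1 smaller.

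The called genes did not share a single pattern. Of the 191 genes with a larger fold, 63 (33.0%) were at least 2-fold lower after Pam3Cys4 without shRNA and changed less than 2-fold with it, so that a fall seen without shRNA was smaller or absent with it. A further 40 were at least 2-fold higher after stimulation with shRNA only, 25 were at least 2-fold higher in both states, 13 at least 2-fold lower in both, and 47 stayed under 2-fold in each state. Maf, Parp8 and Asb13 were at least 2-fold lower after Pam3Cys4 in the state without shRNA and at least 2-fold higher in the other. Of the 162 genes with a smaller fold, 65 (40.1%) were at least 2-fold higher without shRNA and changed less than 2-fold with it, and 47 were at least 2-fold higher in both states. A further 29 stayed under 2-fold in each state, 17 were at least 2-fold lower with shRNA only, 3 were at least 2-fold lower in both, and Il1rl1 was higher without and lower with shRNA. The larger calls thus held a missing or smaller fall as well as a larger rise, and most of the smaller calls were genes whose rise was smaller or missing with shRNA.

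A ratio of ratios can come from a difference between the shRNA states before stimulation, after it, or both. Of the larger calls, 130 of 191 differed more between shRNA states in the stimulated libraries and 61 in the unstimulated ones. Of the smaller calls, the split was 90 and 72. The shRNA states crossed for 5 larger genes, Maf, Cd40, Saa3, Hspa1a and Gpr85, for which the shRNA library was at least 2-fold below the other before stimulation and at least 2-fold above it after Pam3Cys4. Arid5a and Gadd45a crossed in the other direction.

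**Figure D2:**
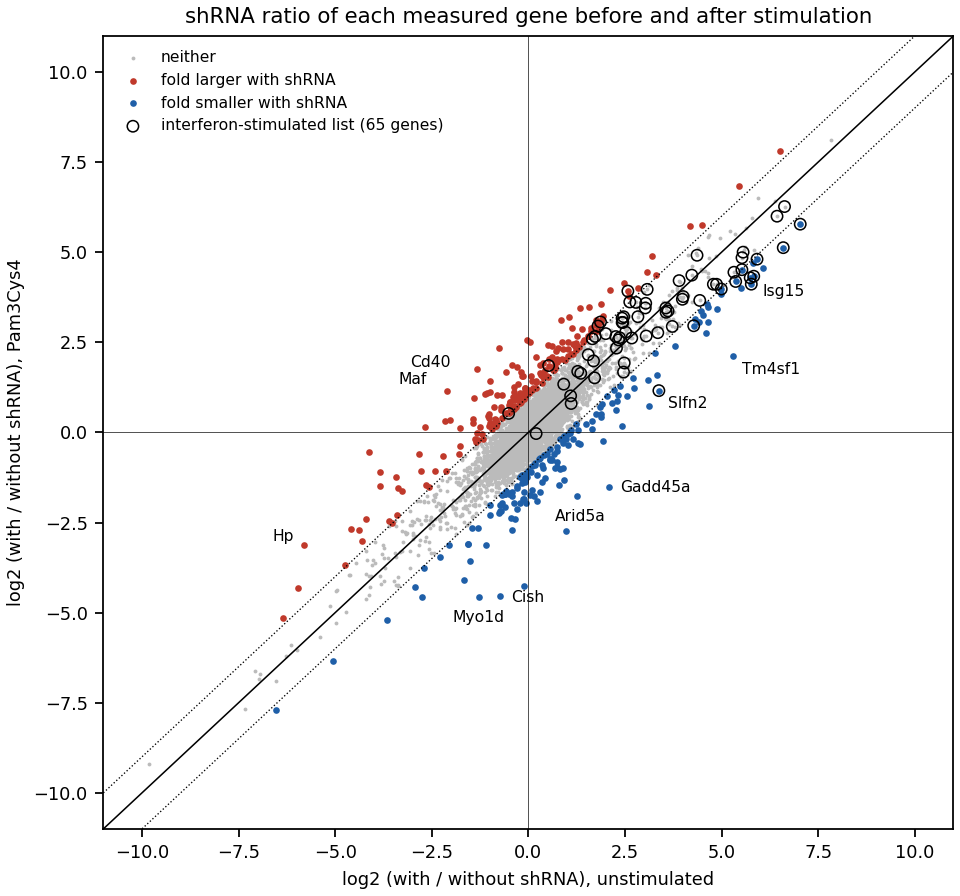
Ratio between shRNA states (log2 of with over without shRNA) of each measured gene in unstimulated cells on the x axis and after Pam3Cys4 on the y axis, with the solid line marking equal ratios and the dotted lines a 2-fold ratio of ratios. Larger calls (red) in the upper left quadrant and smaller calls (blue) in the lower right quadrant changed sides. The 65 circled genes of the interferon-stimulated list lie mostly at the upper right, higher with shRNA in both states, on both sides of the solid line.

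The largest ratio of ratios belonged to Cntnap1, which encodes contactin-associated protein 1 of axon and glia junctions. Its level was 26.6 and 24.1 CPM without shRNA, against 1.52 and 16.5 CPM with it. The level without shRNA hardly differed between stimulation states, whereas with shRNA it was 17.5-fold lower before stimulation and 1.47-fold lower after it. The stimulation fold was 10.9-fold with shRNA against 0.908 without it, a ratio of 11.9 (interval 9.59 to 14.9). Maf encodes the transcription factor c-Maf, which drives Il10 in macrophages. Its level was 109 and 43.3 CPM without shRNA, against 25.5 and 95.8 CPM with it. The states crossed, with a 2.52-fold lower level after Pam3Cys4 without shRNA and a 3.75-fold higher level with it, a ratio of 9.45 (interval 8.78 to 10.2). Parp8, of the poly(ADP-ribose) polymerase family, also crossed. Its level was 11.7 and 5.11 CPM without shRNA, against 6.84 and 26 CPM with it. It was 2.28-fold lower after stimulation without shRNA and 3.8-fold higher with it. Asb13, a SOCS box protein thought to serve as a substrate adaptor of ubiquitin ligases, had the same form at a lower level, from 196 to 66 counts without shRNA and from 246 to 424 with it.

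Cd40, the co-stimulatory receptor for CD40 ligand, was induced in both states. Its level was 11.1 and 70.5 CPM without shRNA, against 4.38 and 237 CPM with it. It began 2.53-fold lower with shRNA and ended 3.36-fold higher, so its induction was 54.1-fold with shRNA against 6.34-fold without, a ratio of 8.53 (interval 7.37 to 9.86). Tnfrsf14, the receptor HVEM of the same superfamily, was lower after stimulation without shRNA and higher with it. Its level was 7.33 and 5.13 CPM without shRNA, against 1.16 and 5.68 CPM with it. The stimulated levels were close to each other, and the ratio of 7.03 (interval 5.23 to 9.44) came from the unstimulated libraries, where the gene was 6.34-fold lower with shRNA. Saa3, an acute-phase protein of activated macrophages, was at 9.73 and 232 CPM without shRNA, against 4.85 and 624 CPM with it. It was induced 23.8-fold without and 129-fold with shRNA, a ratio of 5.4 (interval 4.69 to 6.21). Haptoglobin (Hp), another acute-phase protein, had 837 and 2548 counts without shRNA and only 19 and 317 with it. Its level was lower with shRNA in both states, 56.3-fold before and 8.73-fold after stimulation, and its ratio of ratios of 6.45 (interval 4.03 to 10.3) rests on the 19 counts.

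Efr3b and Otud1 are examples of genes that were lower after Pam3Cys4 without shRNA only. Efr3b, an adaptor of a phosphatidylinositol kinase at the plasma membrane, was at 30.7 and 6.49 CPM without shRNA, against 25 and 23 CPM with it. The unstimulated levels were similar, and only the library without shRNA fell away after Pam3Cys4, by 4.72-fold. Otud1, a deubiquitinase, had 6.56 and 2.16 CPM without shRNA, against 4.88 and 7.94 CPM with it, a ratio of 4.95 (interval 3.82 to 6.42). The inducible heat shock protein 70 genes Hspa1b (7.06 and 10.6 CPM without shRNA, against 2.66 and 20.5 CPM with it) and Hspa1a (1.34 and 2.97 CPM without shRNA, against 0.615 and 6.25 CPM with it) had ratios of 5.12 and 4.59. They were the 2 larger calls (13.3%) among 15 heat shock genes, against 1.94% of all genes, and the list's median log2 ratio was 0.06. The 2 are near-identical copies, so reads can be lost or split between them. Rps6, a ribosomal protein with many processed copies, had a ratio of 5.46 from 102, 143, 135 and 878 counts and is uncertain for the same reason. Among other leading genes was Six5, a homeobox factor at 6.71 (interval 3.7 to 12.2), on only 30 and 27 counts with shRNA. Another was Gm12565 at 5.59 (interval 3.81 to 8.18), annotated as a processed pseudogene, so its reads are likewise uncertain.

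**Figure D3:**
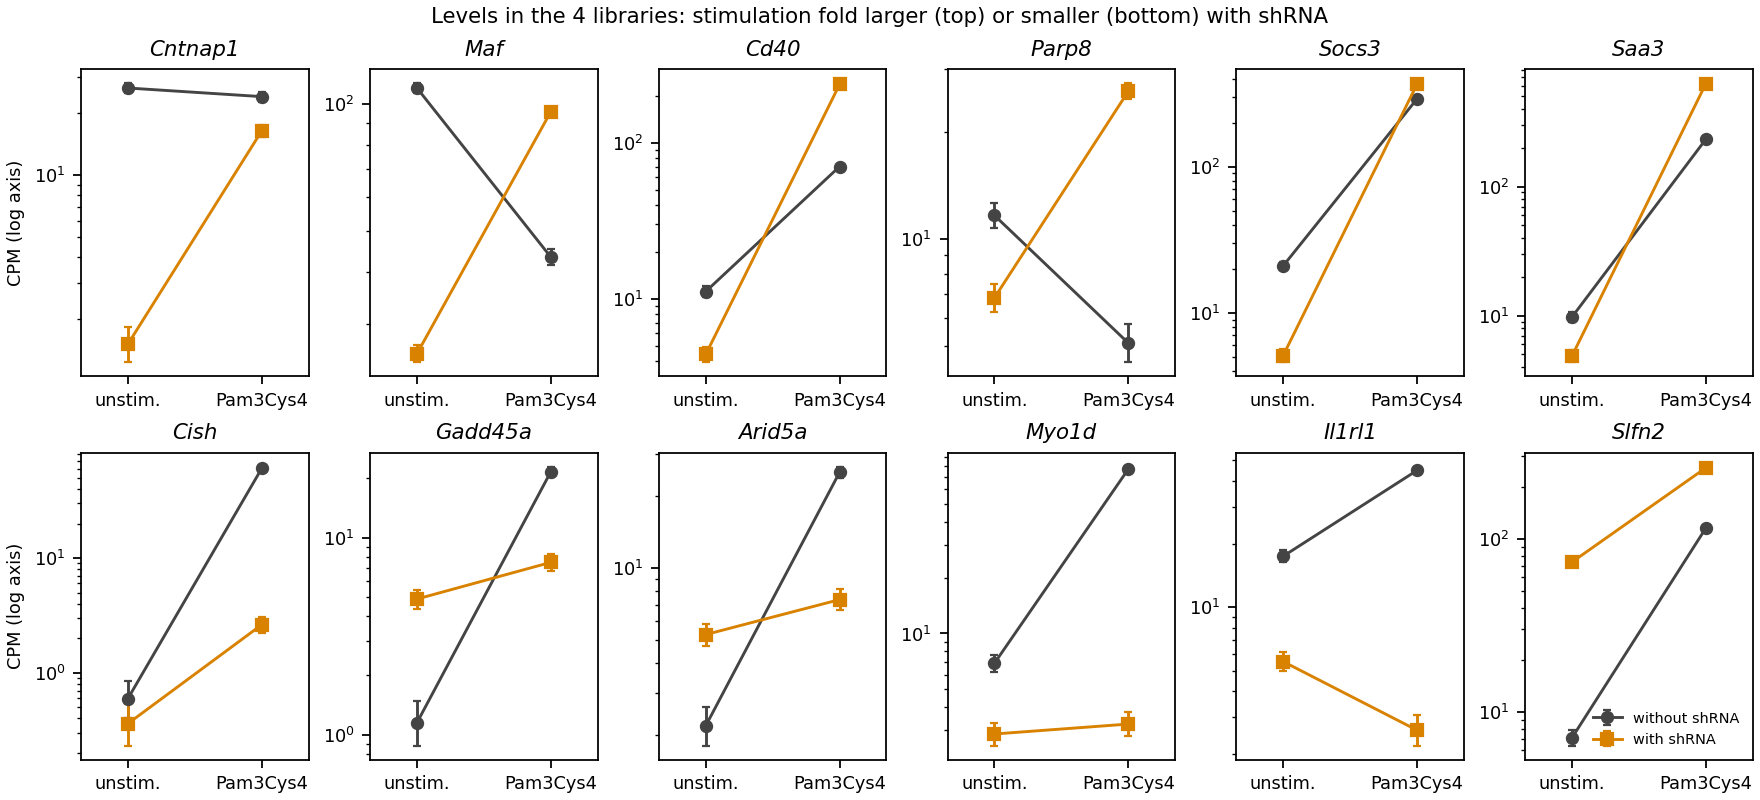
Levels in TMM-scaled CPM on log axes, unstimulated and after Pam3Cys4, of 6 genes with a larger (top row) and 6 with a smaller (bottom row) stimulation fold with shRNA. Grey circles join the 2 libraries without shRNA and orange squares the 2 with it, and bars are exact 95% Poisson counting intervals of single libraries. The lines cross for Maf, Cd40, Parp8, Socs3, Saa3, Gadd45a and Arid5a. For Cntnap1 and Slfn2 they converge, and for Cish, Myo1d and Il1rl1 they move apart.

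Among genes with a smaller fold, Baiap2l1, an actin-bundling membrane protein, had the lowest ratio. It had 34 and 497 counts without shRNA and 40 and 28 with it. The gene was induced 15.1-fold in the library pair without shRNA and not with it, and its induction was 17.8-fold (interval 9.79 to 32.2) smaller. Gadd45a, a stress gene that slows the cell cycle after DNA damage, was at 1.15 and 21.6 CPM without shRNA, against 4.88 and 7.49 CPM with it. It was 4.24-fold higher with shRNA before stimulation and 2.88-fold lower after it, and its induction of 18.7-fold without shRNA compares with 1.53-fold with it. Arid5a, an RNA-binding protein that stabilizes Il6 mRNA, had the same form at 2.19 and 25.1 CPM without shRNA, against 5.27 and 7.38 CPM with it, an induction 8.21-fold (interval 6.46 to 10.4) smaller. Myo1d, an unconventional myosin, was at 6.91 and 77.1 CPM without shRNA, against 2.87 and 3.24 CPM with it. It was 11.2-fold higher after stimulation without shRNA and 1.13-fold with it. Transglutaminase 1 (Tgm1) rested on low counts, 23 and 317 without shRNA and 58 and 52 with it.

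Alas1, the rate-limiting enzyme of heme synthesis, was at 72.2 and 583 CPM without shRNA, against 84.6 and 157 CPM with it. The unstimulated levels were close and the stimulated ones 3.72-fold apart, an induction 4.36-fold (interval 4.16 to 4.58) smaller. Gdf15, a stress-induced cytokine of the TGF-beta superfamily, differed in the other way. Its level was 24.1 and 157 CPM without shRNA, against 129 and 178 CPM with it. Its level with shRNA was 5.34-fold higher before stimulation, and after it the libraries were within 1.13-fold. Tmem132a (4.97 and 63.8 CPM without shRNA, against 43.3 and 106 CPM with it) and the cadherin Celsr3 (1.21 and 12.5 CPM without shRNA, against 4.65 and 10.7 CPM with it) likewise began higher with shRNA. Tm4sf1, a tetraspan membrane protein, did so most, with 10 and 173 counts without shRNA and 506 and 815 with it, at the lowest count that the minimum allows. Il1rl1, the IL-33 receptor ST2, was at 17.5 and 44.8 CPM without shRNA, against 5.52 and 2.61 CPM with it, a 2.56-fold rise without shRNA against a 2.12-fold fall with it. The kinase gene Aatk and the protocadherin Pcdha11 were also higher after stimulation without shRNA (2.53-fold and 2.74-fold) and lower with it (1.51-fold and 1.54-fold). Pcdha11 shares 3′ exons with the other genes of its cluster, so its reads are uncertain.

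Secreted inflammatory factors had calls in both directions, with Lif and Osm among the smaller and Tnf among the larger ones. Of 13 measured cytokines and growth factors 2 (15.4%) were called larger and 3 (23.1%) smaller, against 1.94% and 1.64% of all genes. The median log2 ratio was -0.64 against 0.02 for all genes, and 5 members were above 1 and 8 below it, where 53.1% of all genes were above 1. A further 4 members, Il6, Csf2, Csf3 and Il27, reached 5 CPM but had too few counts for a ratio. After Pam3Cys4, Il6 (971 against 114 counts), Csf2 (874 against 6) and Csf3 were 9.26-fold, 158-fold and 3.06-fold lower with shRNA. Il27 (119 against 410 counts) was 3.17-fold higher with it. Lif, an IL-6 family cytokine, was at 0.365 and 32.5 CPM without shRNA, against 0.27 and 5.01 CPM with it. Oncostatin M (Osm), of the same family, was at 3.17 and 60.9 CPM without shRNA, against 3.89 and 19.4 CPM with it. The induction of both was large in each state and smaller with shRNA, 89.1-fold against 18.5-fold for Lif and 19.2-fold against 4.98-fold for Osm. Hbegf, an EGF receptor ligand, had 2.61 and 9.09 CPM without shRNA, against 1.07 and 1.46 CPM with it. Tnf went the other way at 43.2 and 677 CPM without shRNA, against 21.2 and 957 CPM with it. With shRNA it began 2.04-fold lower and ended 1.41-fold higher, a ratio of 2.88 (interval 2.69 to 3.08). Il15, which supports natural killer and memory T cells, was lower after Pam3Cys4 without shRNA and higher with it, at 1.52 and 0.673 CPM without shRNA, against 3.17 and 6.21 CPM with it.

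In the interleukin-1 family, 1 of 7 measured genes (14.3%) was called larger and 3 (42.9%) smaller, against 1.94% and 1.64% of all genes. The median was -0.23, and Il1a had too few counts for a ratio. Il1b, the main secreted form, had only 10 and 19 counts in the unstimulated libraries and 47990 and 30741 counts after Pam3Cys4. Its induction was 2.52-fold (interval 1.17 to 5.42) smaller, with a wide interval, while the stimulated levels alone were 1.7-fold apart. Il1rn, the receptor antagonist that blocks IL-1, had a similar ratio, 2.52-fold (interval 2.41 to 2.64) smaller, from a different position. Its level was 45.3 and 731 CPM without shRNA, against 141 and 906 CPM with it. It began 3.12-fold higher with shRNA and ended 1.24-fold higher. Il1r2, the decoy receptor, was called larger at 8.33 and 6.06 CPM without shRNA, against 0.42 and 0.747 CPM with it, low in both libraries with shRNA.

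Of 14 measured chemokines 1 (7.14%) was called larger and 2 (14.3%) smaller, against 1.94% and 1.64% of all genes, and the median was -0.31. Cxcl3 and Cxcl14 reached 5 CPM but had too few counts for a ratio. Cxcl3 had 0 and 557 counts without shRNA and 0 and 191 with it, and Cxcl14 had 1982 and 541 against 4 and 0. Cxcl2, a neutrophil attractant, was at 0.863 and 1211 CPM without shRNA, against 1.64 and 487 CPM with it. Its stimulated level was 2.49-fold lower with shRNA and its induction 4.71-fold (interval 3.33 to 6.67) smaller. Ccl6 (4.39 and 16.7 CPM without shRNA, against 2.22 and 3.41 CPM with it) was also smaller, and the monocyte attractant Ccl2 had a log2 ratio of -0.74 and was not called. Fractalkine (Cx3cl1) was the larger call at 0.23 and 0.831 CPM without shRNA, against 5.21 and 44.6 CPM with it. Its ratio of 2.37 has a wide interval (1.24 to 4.55), since it rests on 12 and 42 counts without shRNA. Its receptor Cx3cr1 was called larger too, at 45.6 and 52.1 CPM without shRNA, against 13.4 and 56.4 CPM with it, so that the receptor with shRNA began 3.39-fold lower and reached a similar level after Pam3Cys4. Of 11 chemoattractant receptors 2 (18.2%), Cx3cr1 and the nucleotide receptor P2ry13, were called larger and 0 smaller, against the same shares of all genes.

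Of 17 measured receptors of the TNF superfamily and co-stimulatory molecules, 4 (23.5%) were called larger and 1 (5.88%) smaller, against 1.94% and 1.64% of all genes. The median was 0.57 and 12 of the 17 were above 1, against 53.1% of all genes. Beside Cd40 and Tnfrsf14, the larger calls were RANK (Tnfrsf11a) and Fas. Tnfrsf11a, the receptor that drives osteoclast formation, was at 151 and 57.3 CPM without shRNA, against 81.1 and 93.2 CPM with it. It fell away 2.64-fold without shRNA and stayed within 1.15-fold with it, a ratio of 3.03 (interval 2.86 to 3.21). The death receptor Fas was at 1.5 and 17.2 CPM without shRNA, against 1.08 and 25.9 CPM with it. Cd83 was the smaller call, close to the threshold with an induction 2.02-fold (interval 1.47 to 2.78) smaller, and was not called when library totals replaced TMM scaling. Among 14 Fc and scavenger receptors 1 (7.14%) was called in each direction, against 1.94% and 1.64% of all genes. The activating Fcgr1 was called larger (112 and 86.7 CPM without shRNA, against 163 and 357 CPM with it) and the inhibitory Fcgr2b smaller (26.5 and 227 CPM without shRNA, against 23.7 and 101 CPM with it), the latter again not with library totals.

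Of 27 measured sensors and adaptors of the TLR pathway, 2 (7.41%) were called larger and 1 (3.70%) smaller, against 1.94% and 1.64% of all genes, and the median was 0.10. Tlr3, the receptor for double-stranded RNA, was at 1.59 and 2.81 CPM without shRNA, against 13.3 and 61 CPM with it. It was higher with shRNA in both states and the gap widened from 8.38-fold to 21.7-fold, a ratio of 2.59. Tlr4, the receptor for lipopolysaccharide, was at 17.3 and 24 CPM without shRNA, against 22.2 and 12.9 CPM with it, a level 1.39-fold higher after Pam3Cys4 without shRNA and 1.72-fold lower with it. Cd180, a TLR4-related regulator, was at 62.6 and 34.1 CPM without shRNA, against 88.4 and 98.6 CPM with it, and its call was lost when the median of genes of like transcript length was subtracted.

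NF-kB subunits and their feedback genes showed calls in both directions around a median of 0.10, with 2 of 34 (5.88%) larger and 3 (8.82%) smaller. Over all genes the shares were 1.94% and 1.64%. Nfkbie, which encodes the inhibitor I-kappa-B-epsilon, was at 3.74 and 4.28 CPM without shRNA, against 5.3 and 22.8 CPM with it. Its level hardly differed between stimulation states without shRNA and was 4.31-fold higher with it, a ratio of 3.77 (interval 3 to 4.73). Zc3h12c, a CCCH zinc finger gene of the Regnase family, was at 23.4 and 101 CPM without shRNA, against 13.1 and 128 CPM with it. Bcl3, an atypical I-kappa-B protein, and Tnfaip2, a TNF-induced gene, were called smaller beside Arid5a. Bcl3 was at 7.06 and 94.3 CPM without shRNA, against 20 and 112 CPM with it, a ratio of 0.418. Tnfaip2 was at 45.2 and 362 CPM without shRNA, against 167 and 485 CPM with it, a ratio of 0.362. All 3 smaller calls began at least 2-fold higher with shRNA, and after Pam3Cys4 Bcl3 and Tnfaip2 were within 1.18-fold and 1.34-fold.

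The list of immediate early and AP-1 genes was also divided, with 3 of 27 (11.1%) larger (Fos, Egr3 and Maf), 1 (3.70%) smaller and a median of -0.13. Over all genes, 1.94% were called larger and 1.64% smaller. Fos, a subunit of AP-1, was at 15.5 and 16.6 CPM without shRNA, against 34.3 and 91.4 CPM with it, a ratio of 2.49. Egr3 was at 9.17 and 4.47 CPM without shRNA, against 8.69 and 10.5 CPM with it. Egr1 was at 19.5 and 50.3 CPM without shRNA, against 4.65 and 5.74 CPM with it. The related factors thus had opposite calls, Egr3 with a ratio of 2.48 (interval 2.03 to 3.01) and Egr1 with an induction 2.09-fold (interval 1.76 to 2.49) smaller. Of 12 MAP kinase phosphatases and Sprouty genes, which end MAP kinase signals, 0 were called larger and 1 (8.33%), Dusp8, was called smaller. Dusp8 was at 0.422 and 11.1 CPM without shRNA, against 0.735 and 4.01 CPM with it, an induction 4.83-fold (interval 2.85 to 8.18) smaller on 22 and 49 unstimulated counts.

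The feedback inhibitors of JAK and STAT signalling had opposite calls within a gene family. Cish, induced by STAT5 and an inhibitor of it, had 31 and 3054 counts without shRNA and 24 and 144 with it, which is 0.595 and 60.5 CPM without shRNA, against 0.36 and 2.62 CPM with it. Unstimulated levels were low in both states, and the stimulated level was 23-fold lower with shRNA, giving 102-fold against 7.28-fold induction and an induction 14-fold (interval 7.99 to 24.4) smaller. Socs3, induced by STAT3 and an inhibitor of receptors of the IL-6 family, went the other way. Its level was 20.9 and 291 CPM without shRNA, against 5.1 and 366 CPM with it. It was 4.11-fold lower with shRNA before stimulation and 1.26-fold higher after it, a ratio of 5.17 (interval 4.57 to 5.86). Socs1, which restrains interferon receptors, was at 0.748 and 5.31 CPM without shRNA, against 3.62 and 8.23 CPM with it, an induction 3.11-fold (interval 2.15 to 4.51) smaller that came from a 4.83-fold higher unstimulated level. The proximal promoters of Cish and Socs3 are shown because the pair has opposite ratios and both hold the STAT-type motif TTCNNNGAA, whose matches on either strand are in capitals. The sequences are RefSeq windows of build GRCm38.p6, from 180 bases before to 30 bases after the annotated start, 5′ to 3′ on the gene's strand.
Cish promoter, chr9:107296479-107296688, plus strand: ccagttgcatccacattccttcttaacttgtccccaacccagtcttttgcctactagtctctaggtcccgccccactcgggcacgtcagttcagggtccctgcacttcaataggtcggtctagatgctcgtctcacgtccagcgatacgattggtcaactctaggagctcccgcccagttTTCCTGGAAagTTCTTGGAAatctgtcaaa
Socs3 promoter, chr11:117969337-117969546, minus strand: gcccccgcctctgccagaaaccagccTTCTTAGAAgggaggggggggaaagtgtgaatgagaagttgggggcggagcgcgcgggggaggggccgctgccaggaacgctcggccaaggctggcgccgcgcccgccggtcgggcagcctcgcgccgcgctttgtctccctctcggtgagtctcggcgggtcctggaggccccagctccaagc
The Cish window holds 2 matches, beginning at bases 1 and 12 of the transcript, and the Socs3 window holds 1 match, 154 bases before it. None overlaps another motif searched here. The counts were made on another build, NCBIM37, so these coordinates serve only to place the sequences.

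Genes known to follow STAT5 or the growth factor GM-CSF, a list that includes Cish and Osm from above, were divided. Of 20 measured, 2 (10%) were called larger (Pim2 and Ccnd1) and 3 (15%) smaller (Cish, Pim1 and Osm). Over all genes the shares were 1.94% and 1.64%. Of the 20, 6 were above 1 and 14 below, and the median was -0.21. Csf2, the gene of GM-CSF itself, had too few counts for a ratio, with 2 and 874 counts without shRNA and 0 and 6 with it. The kinase genes Pim1 and Pim2 had opposite calls. Pim1 was at 5.97 and 93.6 CPM without shRNA, against 21.9 and 134 CPM with it, a ratio of 0.389. Pim2 was at 9.53 and 29.4 CPM without shRNA, against 4.8 and 35.3 CPM with it, a ratio of 2.39. Ccnd1, which encodes cyclin D1 and serves M-CSF driven growth, was at 1079 and 568 CPM without shRNA, against 591 and 690.5 CPM with it, so that Pam3Cys4 went with a 1.9-fold lower level without shRNA and a 1.17-fold higher level with it. Of 18 genes known to respond to IL-10 or STAT3, 4 (22.2%) were called larger (Socs3, Saa3, Gpr84 and Fcgr1) and 3 (16.7%) smaller (Bcl3, Pim1 and Il1rn), against the same shares of all genes. The list median was -0.43, with 6 members above 1 and 12 below it. Gpr84, a receptor for medium-chain fatty acids, was at 129 and 1089 CPM without shRNA, against 27.9 and 696 CPM with it. It began 4.61-fold lower with shRNA and ended 1.56-fold lower.

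Of the 39 lists, the interferon-stimulated genes had the highest median difference in level between the shRNA states, and their stimulation folds differed far less. Of 65 measured, 61 had an unstimulated level at least 2-fold higher with shRNA, and 62 did so after Pam3Cys4. The list's median log2 ratios between the shRNA states were 3.03 and 3.21, against 0.03 and 0.05 over all genes. The median log2 stimulation ratio was 1.04 without and 1.24 with shRNA, and the median ratio of ratios was -0.08, with 31 above 1 and 34 below it. The list held 11 smaller calls (16.9%) and 5 larger ones (7.69%), both shares above the 1.64% and 1.94% of all genes. The 11 were Ifit1, Ifit3, Isg15, Rsad2, Cmpk2, Oasl2, Dhx58, Rtp4, Ifi204, Xaf1 and Slfn2, and all 11 were at least 2-fold higher with shRNA in both stimulation states.

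Isg15, a ubiquitin-like modifier of antiviral defence, had 41 and 462 counts without shRNA and 2989 and 10130 with it. It was 57-fold higher with shRNA before stimulation and 20.2-fold after it, so its induction was 11.6-fold without and 4.11-fold with shRNA, an induction 2.83-fold (interval 2.05 to 3.9) smaller. The oligoadenylate synthetase-like gene Oasl2 (2.15 and 10.1 CPM without shRNA, against 208 and 353 CPM with it), the chaperone Rtp4 (2.03 and 7.86 CPM without shRNA, against 109 and 154 CPM with it) and the apoptosis regulator Xaf1 (0.556 and 5.44 CPM without shRNA, against 30.4 and 94.3 CPM with it) had the same form. Slfn2, a Schlafen family gene, had the lowest ratio of the list at 7.06 and 115 CPM without shRNA, against 73.4 and 258 CPM with it, and its gap between shRNA states narrowed from 10.4-fold to 2.23-fold. Ifit1, which binds viral RNA, was at 1.25 and 27.3 CPM without shRNA, against 24.2 and 213 CPM with it. For each of these 6 genes the absolute rise in CPM was larger with shRNA although the fold was smaller. The 5 larger calls were Herc6, Ifi47, Samd9l, Sp110 and Slfn9, and of these Herc6, an E3 ligase family gene, was at 3.59 and 5.4 CPM without shRNA, against 21.4 and 81.9 CPM with it.

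The promoters of Isg15 and Ifit1 are shown as examples of this list, with the interferon-stimulated response element (ISRE), searched as GAAA repeated after a gap of 2 bases on either strand, in capitals, in the same RefSeq windows of GRCm38.p6 as above.
Isg15 promoter, chr4:156200789-156200998, minus strand: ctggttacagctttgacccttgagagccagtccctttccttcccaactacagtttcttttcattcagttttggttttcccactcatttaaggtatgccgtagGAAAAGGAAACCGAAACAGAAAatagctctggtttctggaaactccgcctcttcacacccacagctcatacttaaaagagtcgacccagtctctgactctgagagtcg
Ifit1 promoter, chr19:34640709-34640918, plus strand: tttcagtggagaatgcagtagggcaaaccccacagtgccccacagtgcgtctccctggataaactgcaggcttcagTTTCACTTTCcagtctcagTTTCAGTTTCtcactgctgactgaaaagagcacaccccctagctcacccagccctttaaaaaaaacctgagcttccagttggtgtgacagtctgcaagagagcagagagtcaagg
Isg15 holds 3 matches that overlap each other, 78, 72 and 66 bases before the start site, and Ifit1 holds 2, 104 and 85 bases before it. Promoter windows of 300 bases were found for 143 of 191 larger and 110 of 160 smaller calls with a symbol. A gene counted as holding a motif when any of its windows did. The interferon-response motif was present in 12 genes (8.39%) of the larger and 10 (9.09%) of the smaller set, against 3.97% of 7451 measured genes with a window. The AP-1 motif TGANTCA was in 5.59% of the larger and 14.5% of the smaller set, against 5.85%. The STAT motif was in 7.69% and 10.0%, against 7.88%. The C/EBP motif TTNNGCAA was in 16.1% and 14.5%, against 9.92%, the loose kappa B motif, GGG and CC with 5 bases between them, in 75.5% and 74.5%, against 73.3%, and the CRE motif TGACGTCA in 2.10% and 4.55%, against 3.87%. All motifs were searched on both strands, and a match describes the letters of the window and not a bound factor.

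Genes linked to interferon gamma and the GTPase families had 2 of 19 (10.5%) larger and 4 (21.1%) smaller calls, against 1.94% and 1.64% of all genes, around a median of 0.20. Tap2, a subunit of the peptide transporter for MHC class I, was called larger, at 15.1 and 16.8 CPM without shRNA, against 34.7 and 88.8 CPM with it. Gch1, which makes the cofactor of nitric oxide synthase, was called smaller, at 8.08 and 81.7 CPM without shRNA, against 47.1 and 164 CPM with it. So was the guanylate-binding protein Gbp7, at 0.921 and 9.07 CPM without shRNA, against 29 and 130.1 CPM with it. Uridine phosphorylase Upp1 was called smaller on 10 unstimulated counts in each state. Of 14 genes for interferon receptors and their signalling, 13 were above 1, against 53.1% of all genes, and the median was 0.38. Only Irf5 (7.14%) was called larger, against 1.94% of all genes, and 0 were called smaller. Irf5, a transcription factor of the TLR and MyD88 pathway, was at 127 and 59.7 CPM without shRNA, against 145 and 255 CPM with it. Its level went down 2.13-fold without shRNA and up 1.76-fold with it, a ratio of 3.76 (interval 3.57 to 3.95). Jak2 (1.97) and Ifngr1 (1.89) lay just under the threshold.

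The MHC class I list had a median of 0.42, with 10 of 15 above 1, against 53.1% of all genes. Of the 15, 3 (20%) were called larger and 1 (6.67%) smaller, against 1.94% and 1.64% of all genes. H2-T22 was at 5.54 and 8.75 CPM without shRNA, against 14.6 and 63.9 CPM with it. H2-Q4 was at 4.95 and 4 CPM without shRNA, against 10 and 20.1 CPM with it. Both were higher with shRNA in each state, and the gap widened after Pam3Cys4 to 7.3-fold and 5.03-fold. The tapasin-related Tapbpl was the third larger call, at 5.79 and 6.06 CPM without shRNA, against 14.5 and 31.3 CPM with it. H2-T24 was called smaller at 0.959 and 3.19 CPM without shRNA, against 53.8 and 83.7 CPM with it. The class I genes are close copies of each other, so how reads were assigned among them is uncertain.

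Among 31 effector genes of activated macrophages, 4 (12.9%) were called larger and 4 (12.9%) smaller, against 1.94% and 1.64% of all genes. The median was -0.09. A further 10 members reached 5 CPM but had too few counts for a ratio. After Pam3Cys4, Nos2, Lcn2 and Adora2a of these were higher with shRNA. Slpi, Arg1, Mmp3, Mmp8, Serpinb2, Cd38 and F3 were lower with it. Beside Saa3, Hp and Gpr84, the adenosine receptor Adora2b was called larger, at 5.35 and 74.5 CPM without shRNA, against 0.75 and 49.2 CPM with it. Slc7a11, the cystine transporter, was called smaller, at 7.23 and 123 CPM without shRNA, against 11.6 and 61.9 CPM with it. So was the phenylalanine oxidase Il4i1, at 2.82 and 28.6 CPM without shRNA, against 2.61 and 7.96 CPM with it. Acod1, the itaconate-forming enzyme, and Procr, the protein C receptor, were the other 2 smaller calls. Acod1 was at 11.9 and 1344 CPM without shRNA, against 79.7 and 3171 CPM with it. Its absolute level was higher with shRNA in both states although its induction was 2.85-fold (interval 2.62 to 3.09) smaller.

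Of 13 genes of alternative activation and resident macrophages 1 (7.69%) was called larger and 2 (15.4%) smaller, against 1.94% and 1.64% of all genes. Gas6, a ligand of the receptors that clear dying cells, was at 945 and 229.5 CPM without shRNA, against 77.2 and 41.7 CPM with it. It was lower with shRNA in both states and fell away less, 1.85-fold against 4.12-fold. Transglutaminase 2 (Tgm2) had a wide gap between shRNA states at 44 and 159 CPM without shRNA, against 2007 and 2559 CPM with it. It was 3.63-fold higher after Pam3Cys4 without shRNA and 1.28-fold higher with it. Of 19 adhesion genes 2 (10.5%) were called larger and 1 (5.26%) smaller, against 1.94% and 1.64% of all genes. The larger calls were the selectin ligand Selplg (2.61) and the integrin Itgb7 (2.24). The smaller call was Thbs1, thrombospondin (2 and 12.4 CPM without shRNA, against 17 and 33.8 CPM with it).

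**Figure D4:**
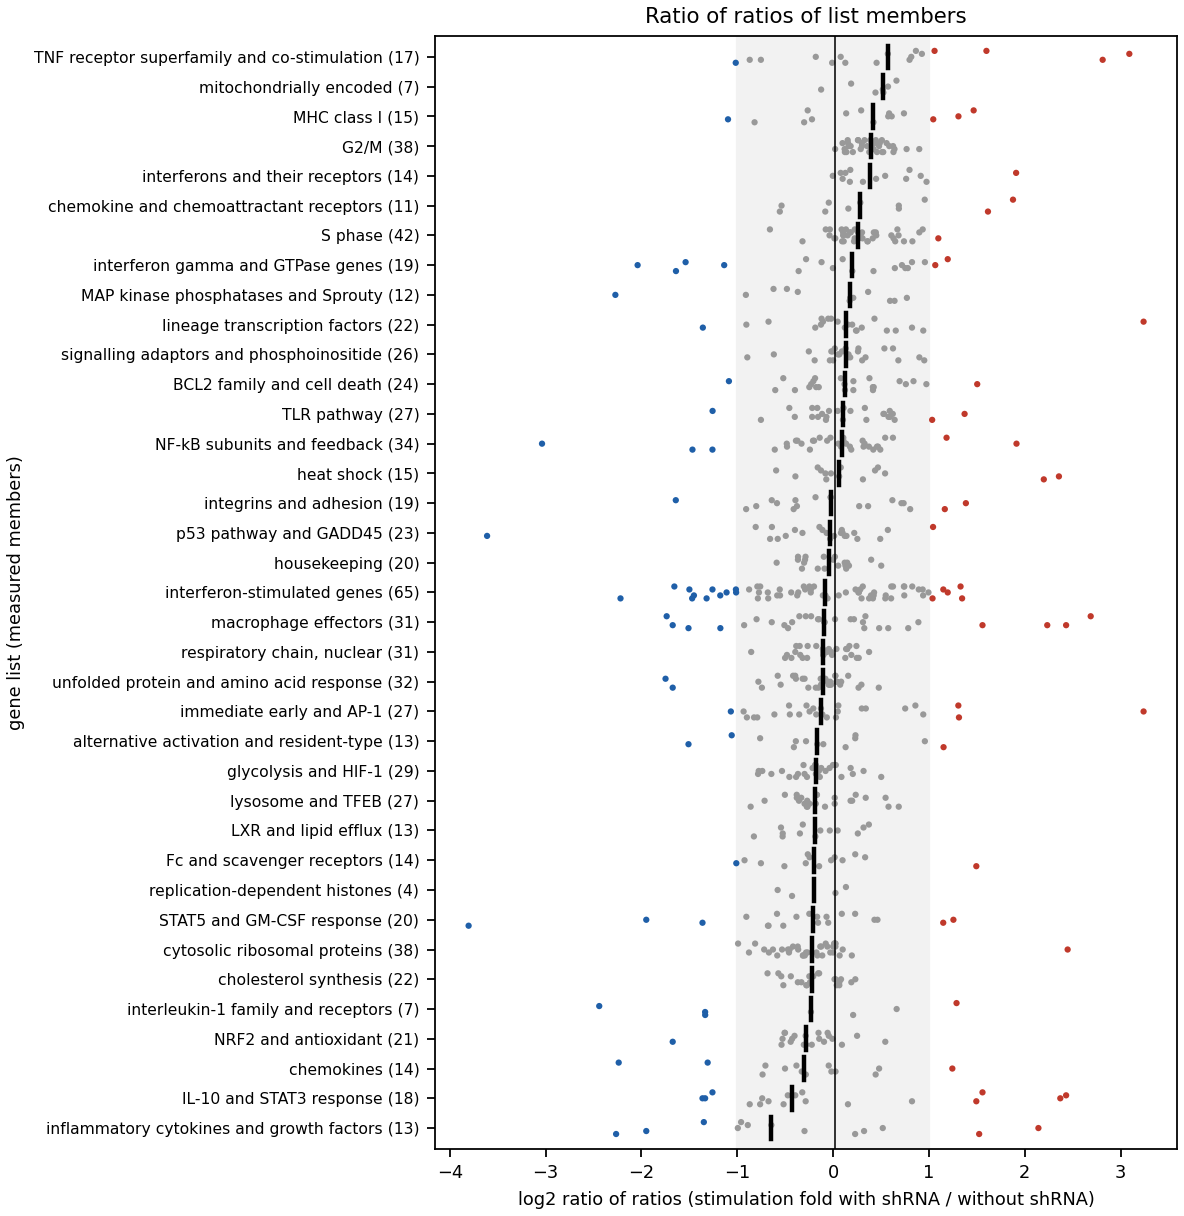
log2 ratio of ratios of the measured members of each gene list with at least 4 of them, with the number of members in parentheses. Red points are larger calls, blue points smaller calls, the shaded band marks a ratio within 2-fold, thick bars are list medians and the thin line is the median of all genes at 0.02. Medians run from -0.64 for cytokines to 0.57 for the TNF receptor superfamily, and most lists hold points on both sides.

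Cell cycle genes were mostly above 1 by small amounts, with 1 call among them. Of 38 genes of G2 and mitosis, 38 were above 1, against 53.1% of all genes. In this list 0 were called, and the median log2 ratio was 0.39 (range 0.02 to 0.90). Without shRNA the median log2 stimulation ratio of this list was -0.61 and with shRNA -0.24, and 5 members against 0 were at least 2-fold lower after Pam3Cys4, beside 651 and 377 of all 9857 genes. Of 42 S phase genes 37 were above 1, with a median of 0.26, and Mcm10, a replication initiation factor, was the only call at 60 and 29.4 CPM without shRNA, against 83.5 and 87.6 CPM with it. In this list 19 members were at least 2-fold lower after Pam3Cys4 without shRNA and 7 with it. Cdc25c, a phosphatase that starts mitosis, had the highest ratio of the mitotic genes, 1.87. The lists were not tested.

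Stress lists held 1 or 2 calls each. Over all genes 1.94% were called larger and 1.64% smaller. Several stress and metabolic lists had most members slightly below 1, where 4622 of all 9857 genes were below 1. Of 32 genes of the unfolded protein and amino acid response, 0 were called larger and 2 (6.25%) smaller. These were Slc7a11 and the glutathione-degrading Chac1 (4.99 and 29.7 CPM without shRNA, against 6.41 and 11.3 CPM with it). Of 21 NRF2 and antioxidant genes 18 were below 1, with a median of -0.28 and Slc7a11 as the 1 call (4.76%), a smaller one. In 23 genes of the p53 pathway, Gadd45a was the 1 smaller and Sesn1 the 1 larger call (4.35% each). Sesn1 lost its call when the median of genes of like length was subtracted. Of 29 glycolysis genes 23 were below 1 (median -0.18), and of 22 cholesterol synthesis genes 14 were (median -0.22). None of these, nor of 31 nuclear respiratory chain, 27 lysosome or 20 housekeeping genes was called. The 7 measured mitochondrially encoded genes had a median of 0.52, from -0.12 for mt-Nd2 to 0.66 for mt-Nd6. Of 38 ribosomal protein genes 27 were below 1, with a median of -0.22 and Rps6 as the 1 call.

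The ratio moved slightly with transcript length. The shortest 20% of genes had a median log2 ratio of -0.07 with 1.03% called larger and 1.90% smaller, and the longest 20% had a median of 0.08 with 2.26% and 1.38%. Larger calls had a median transcript length of 3779 bases, smaller calls 3005.5 and other genes 3376. Subtracting the median of each of 20 length bins gave 179 larger and 174 smaller genes, of which 169 and 152 were among the 191 and 162.

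A further 157 genes reached 5 CPM but had fewer than 10 counts in some library, so that no ratio of ratios was computed. Of these, 51 were low in both libraries with shRNA, 31 in both without it and 12 in both unstimulated libraries, the last being genes that were near silent until stimulated. Csf3, the granulocyte growth factor G-CSF, had 3 and 24561 counts without shRNA and 8 and 8727 with it. Il1a, a cell-associated form of IL-1, had 9 and 12319 against 5 and 4737. The stimulated levels were lower with shRNA for both, 3.06-fold for Csf3 and 2.83-fold for Il1a. Nos2, the inducible nitric oxide synthase, had 8 and 1527 counts without shRNA and 11 and 12203 with it, a stimulated level 7.35-fold higher with shRNA. Lcn2, the siderophore-binding lipocalin, had 5 and 3539 against 8 and 4766 counts.

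Other genes below the minimum were read almost wholly in 1 shRNA state. Slpi, a leukocyte protease inhibitor, had 2339 and 17612 counts without shRNA and 10 and 9 with it. Endothelial lipase (Lipg) had 3 and 11 counts without shRNA and 4313 and 25532 with it, higher after Pam3Cys4. Carbonic anhydrase 2 (Car2) had 17349 and 19146 counts without shRNA and 8 and 11 with it. Ly86, the MD-1 partner of Cd180, had 3920 and 2080 counts without and 1 and 3 with shRNA. At such counts the stimulation fold in the low state has a wide counting interval. For Slpi it was 1.09-fold (exact interval 0.393 to 2.99) with shRNA against 7.77-fold (7.44 to 8.12) without it, and these intervals do not overlap. For Lipg it was 3.78-fold (0.999 to 21.1) without shRNA and 7.19-fold (6.96 to 7.42) with it, and for Car2 1.14-fold (1.12 to 1.16) without and 1.67-fold (0.611 to 4.78) with it, and these overlap.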

How the data were processed

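Bone marrow cells were profiled by mRNA sequencing in 4 libraries, 1 per group, and reads of 50 bp came from an Illumina instrument, per the labels' protocols. CASAVA 1.8, TopHat and HTSeq were used with build NCBIM37, per the submitters' processing notes, while neither annotation release nor strand setting was given in the sources used here. The authors deposited whole-number counts per gene, and the HTSeq lines that name no gene (32.5 to 34.4% of table totals) stayed out. Alignments to several places made up 27.0 to 29.9%, so close copies are undercounted. Symbols came from GENCODE vM21, which is on another build, so no coordinates were taken from it.

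Scaling used TMM factors (0.924 to 1.10) from edgeR 4.0.16 in R 4.3.3, and ratios, intervals and calls were computed in Python 3.11.15 with numpy 2.4.6, checked on simulated data. With 1 library per group no count model was fitted and no p-value given. The depth per library allows the precision shown by each interval, which covers counting error only. Promoter letters came from RefSeq on GRCm38.p6. The members and the 39 lists (965 distinct genes, 955 matched) were chosen with earlier results of these data known. Named genes were the 15 calls per direction whose interval lay farthest from 1, genes at least 2-fold apart in opposite directions, up to 5 extreme members per list (all members of lists with 10 or fewer measured) and the 15 most abundant genes under the minimum. Ptgs2, Ifit1, Herc6, Acod1, Ddx3y and members named only as calls of a list were chosen after their values were seen. So were the list members named as having too few counts for a ratio. Alternatives covered the scaling (library totals, DESeq2 1.42.0 size factors, upper quartile, centring), the minimum counts and CPM, wider intervals, transcript length and protein-coding genes. The level of the targeted RNA is not reported here.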

Additional observations from a re-analysis of the deposited data

Results flagged for a closer look

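Maf, Parp8, Asb13 and Il1rl1 were singled out because their measured response to Pam3Cys4 had opposite directions in the shRNA states, at least 2-fold each way, and the difference was not tested since each group has 1 library. The log2 stimulation ratio of Maf was -1.33 without shRNA and 1.91 with it. That of Parp8 was -1.19 without and 1.93 with shRNA. Asb13 had -1.53 without and 1.06 with shRNA, on 66 to 424 counts per library. Il1rl1 had 1.36 without and -1.08 with shRNA, on 143 to 2262 counts.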

How the results depend on the processing

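No paired analysis was possible because each group has 1 library, and leaving out a library leaves no ratio of ratios. The counts of 191 larger and 162 smaller genes moved to 313 and 255 with 1 CPM as the minimum in the highest library, where 11522 genes were measured, and the larger count to 114 with 20 CPM, which measures fewer genes. An assumed coefficient of variation of 0.2 between libraries left 121 larger and 109 smaller genes. One of 0.4 left 14 larger and 9 smaller, since only a ratio of at least 4.80-fold can then pass. Requiring the whole interval beyond 2-fold left 100 larger and 82 smaller genes. Library totals gave 233 and 139, so that 62.6% of calls were larger against 54.1% with TMM. The other settings tried for these counts stayed within 1.5 times. No named gene changed direction, and the median changed sign only with library totals, for the p53, housekeeping and adhesion lists. Depth limits the genes with 10 to 40 counts in a library, such as Cish, Tgm1, Baiap2l1 and Il1b, whose intervals are wide.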
